A study of Arabidopsis thaliana with 6 samples.

Results

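The TRICHOME BIREFRINGENCE-LIKE (TBL) genes of Arabidopsis thaliana were followed on arrays of root cells that had been stripped of their walls and sorted, and of intact roots. The members were all probe sets that the platform annotation pairs with exactly 1 gene whose symbol is TBL and a number. There were 22 of them, for 22 genes, among 22810 probe sets on the array. The reference gene table holds 45 genes with such a symbol or synonym, and the others were not analysed here.

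Hemicelluloses and pectins, the matrix polysaccharides in which cellulose fibres are embedded, carry acetyl groups on part of their sugars. TBL proteins are plant-specific Golgi proteins, and most of those studied transfer acetyl groups onto a given polysaccharide, such as xylan, xyloglucan, mannan or pectin. The groups affect how polymers pack against cellulose and how easily wall-degrading enzymes reach them. In roots xylan is most abundant in the thickened walls of xylem, whereas xyloglucan and pectin make up much of the thin primary wall of all cells.

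The sorted-cell group held 3 samples of root protoplasts, cells freed of their walls, that had run through a fluorescence-activated cell sorter from which every cell was kept. It was set against 3 samples of whole roots that had not been protoplasted. Both groups were Columbia seedlings, 6 days after germination, moved for 24 hours to medium with no ferrous sulfate and with 0.3 mM ferrozine, a compound that binds iron, so no iron-sufficient sample enters the comparison. Each sample was hybridised to 1 Affymetrix array after RNA amplification in 2 cycles; the study asked how protoplasting and sorting change root transcript levels, and whether replicates came from separate cultures is not given, so the p-values cover only the variation among these arrays, part or all of which may be technical. No cell type was selected, and in bulk RNA fewer cells of a type and less RNA per cell cannot be told apart.

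Values are MAS5 signal intensities on a linear scale as deposited, and differences are on the log2 scale, sorted cells minus whole roots. With the top and bottom 2% of values removed, every array had a mean of 250.02 or 250.03, so a difference is relative to the signal of the whole array. The number of arrays limits the precision. Of 22746 probe sets that are not controls, the 13647 brightest were tested with limma, and a Benjamini-Hochberg adjusted p under 0.05 was called. Arrays of sorted cells correlated at 0.883 to 0.951 with each other and those of whole roots at 0.970 to 0.979 (Pearson's r of log2 values over the tested probe sets; probe sets do not count as replicates).

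Several control measures moved with the groups. The 18 hybridisation control probe sets, which read transcripts added to the labelled sample, had a mean log2 signal of 11.2, 10.5 and 9.74 on the sorted-cell arrays and 8.77, 8.87 and 8.90 on the whole-root arrays, a difference of 1.61. Scaling each array to them, an alternative chosen after seeing the data, lowered every difference by that amount and took the median of all tested probe sets to -1.78, from -0.16. For actin, the signal near the 3′ end exceeded that near the 5′ end by a log2 value of 5.53, 4.09 and 3.37 in sorted cells, against 1.60, 1.61 and 1.85 in whole roots. Both root hair markers with a probe set, of 4 listed, fell (summed intensity 299 to 472 in sorted cells and 2476 to 3172 in whole roots). So did both cortex and ground tissue markers, of 3 listed (19.5 to 90.7 in sorted cells and 381 to 430 in whole roots), both green tissue markers, of 5 listed (68.2 to 141 and 503 to 569), and the 1 stele marker of 4 (258 to 416 and 469 to 657; limma adjusted p up to 0.0994 over the other settings). Both cortex and ground tissue markers and RCA, 1 of the green tissue markers, passed the filter on dim probe sets only through whole roots, and the cortex and green tissue markers read above the background level defined below on 2 of 3 sorted-cell arrays each. The 1 root cap marker of 4 rose (3069 to 6875 in sorted cells and 187 to 222 in whole roots), and the 1 endodermis marker of 8 did not pass (128 to 162 and 88.8 to 115). With arrays scaled to the hybridisation controls the root cap marker still stood at 2.77. The xylem, phloem and non-hair epidermis markers listed had no probe set under these names. The part of these measures in the results on TBL genes was not tested.

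Of the 22 TBL probe sets, 17 were bright enough to be tested, and 8 of these were called. Higher in sorted cells were TBL45, TBL19, TBL32, TBL39, TBL37, TBL38 and TBL25, by 1.66-fold to 4.76-fold, and lower was TBL23. With arrays scaled to the hybridisation controls, TBL45 alone kept a positive difference, which did not pass. On that scale limma called 0 members higher (0 at an unadjusted p under 0.05) and 9 lower, where 3.32% of all tested probe sets were called higher and 71.7% lower. These 9 were TBL16, TBL18, TBL21, TBL23, TBL28, TBL30, TBL34, TBL36 and TBL41, of which only TBL23 was called on the deposited scale. On the deposited scale the called share was 47.1% of the tested members, near the 53.9% of all tested probe sets that limma called. In the higher direction it was 41.2% of members, against 23.7% of all tested probe sets, and in the lower direction 5.88% against 30.2%. The median difference was 0.35 over the 17 members and -0.16 over all tested probe sets. The members' median was 0.12 without sorted-cell replicate 3, 0.22 without whole-root replicate 1 and 0.54 without whole-root replicate 3, where that of all tested probe sets was -0.15, -0.16 and -0.16. Without overlap between the groups were 10 tested members, 7 higher and 3 lower, where 27.9% of all tested probe sets were higher without overlap and 36.1% lower.

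All 17 tested members read above the background level on each of the 6 arrays. That level is the highest signal on an array among 27 controls for Bacillus subtilis genes, and it lay at 57.4, 36.3 and 14.3 in sorted cells and at 16.8, 11.8 and 10.4 in whole roots. TBL19 passed the filter on dim probe sets only through its level in sorted cells, since its whole-root mean lay under the lowest level kept, an intensity of 45.3. No test was made over the list, and counts over members that passed the filter are a description.

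**Figure D1:**
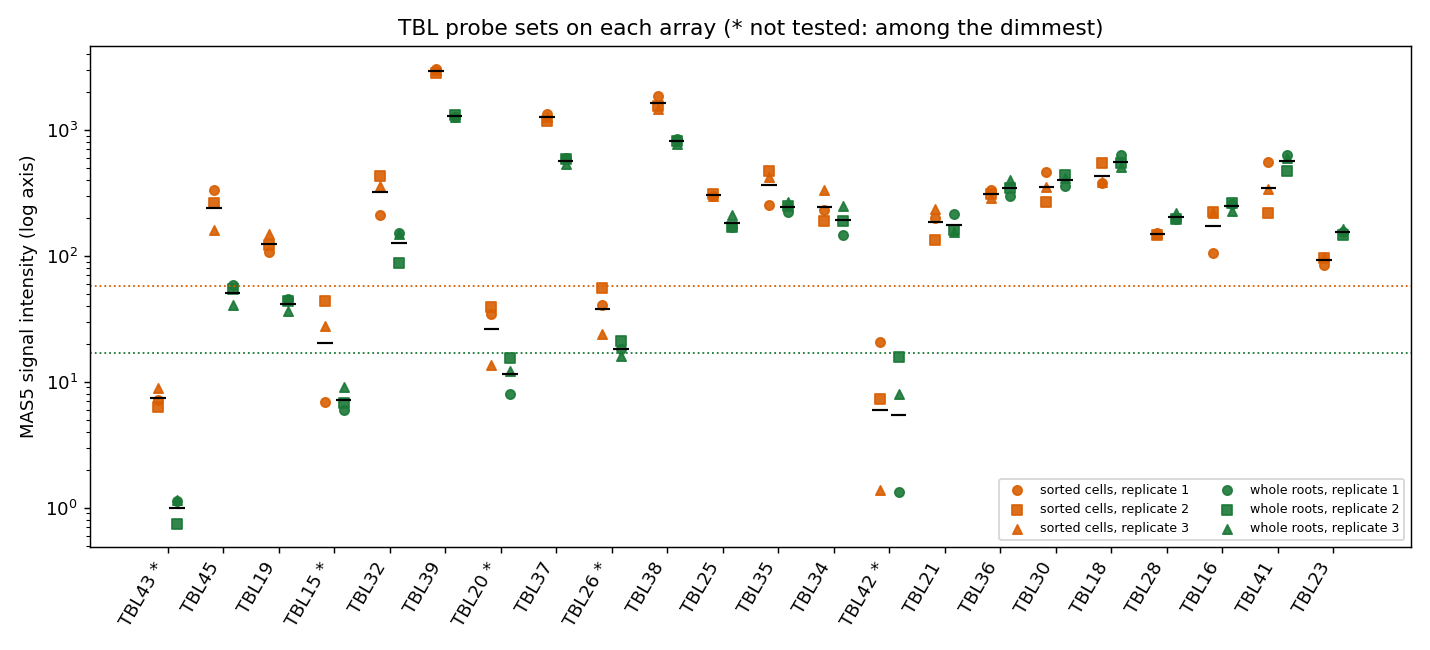
MAS5 signal intensity (log axis) of the 22 TBL probe sets on each of 6 arrays, sorted cells in orange left of whole roots in green, with black bars at the mean of log2 values (n = 3 each); dotted lines mark the highest background level in each group. Genes run from the largest difference on the left to the lowest on the right; TBL45 and TBL39 show well separated groups, and the 5 starred genes lie near or under the dotted lines.

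The largest difference among the 17 tested members was that of TBL45 (AT2G30010). Its intensities were 332, 261 and 160 in sorted cells, against 58.3, 54.1 and 40.9 in whole roots. Every sorted-cell array was above every whole-root array, with replicate 3 the lowest of its group in both. The log2 difference was 2.25 (SE 0.31; 95% interval 1.56 to 2.94; limma adjusted p = 0.000349), larger than in 95.2% of the tested probe sets. An offset of 64 on all intensities before taking logs gave 1.42, and scaling arrays to the hybridisation controls gave 0.64 (limma adjusted p = 0.226).

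TBL37, TBL38 and TBL39 rose by similar amounts on the deposited scale. TBL39 (AT2G42570) read 3059, 2845 and 2967 in sorted cells and 1268, 1312 and 1257 in whole roots. The groups lay far apart for their spread, with a log2 SD of 0.052 in sorted cells and 0.033 in whole roots (n = 3 each). Its difference was 1.21 (SE 0.17; limma adjusted p = 0.000447), and it ran from 1.18 to 1.24 when single arrays were left out.

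TBL37 (AT2G34070), described in Arabidopsis as a wall acetylation gene that responds to jasmonate, read 1334, 1165 and 1270 in sorted cells and 598, 585 and 531 in whole roots. Its difference of 1.14 (SE 0.18; limma adjusted p = 0.000854) was a 2.20-fold higher signal. TBL38 (AT1G29050), which in Arabidopsis seed mucilage has been assigned to removing acetyl groups from pectin rather than adding them, read 1869, 1558 and 1468 in sorted cells and 842, 816 and 768 in whole roots. It was 2.01-fold higher (log2 difference 1.01, SE 0.19; limma adjusted p = 0.00196). The groups did not overlap for either gene. For these 3 genes the difference lay 1.17 to 1.37 above the median of all tested probe sets. No scaling of whole arrays changes that distance. It was not rare, as their differences were larger than in 82.6% to 85.8% of the tested probe sets. TBL45, TBL19 and TBL32 lay further above the median. With arrays scaled to the hybridisation controls the values themselves were -0.48 for TBL37, -0.61 for TBL38 and -0.41 for TBL39, and none passed.

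**Figure D2:**
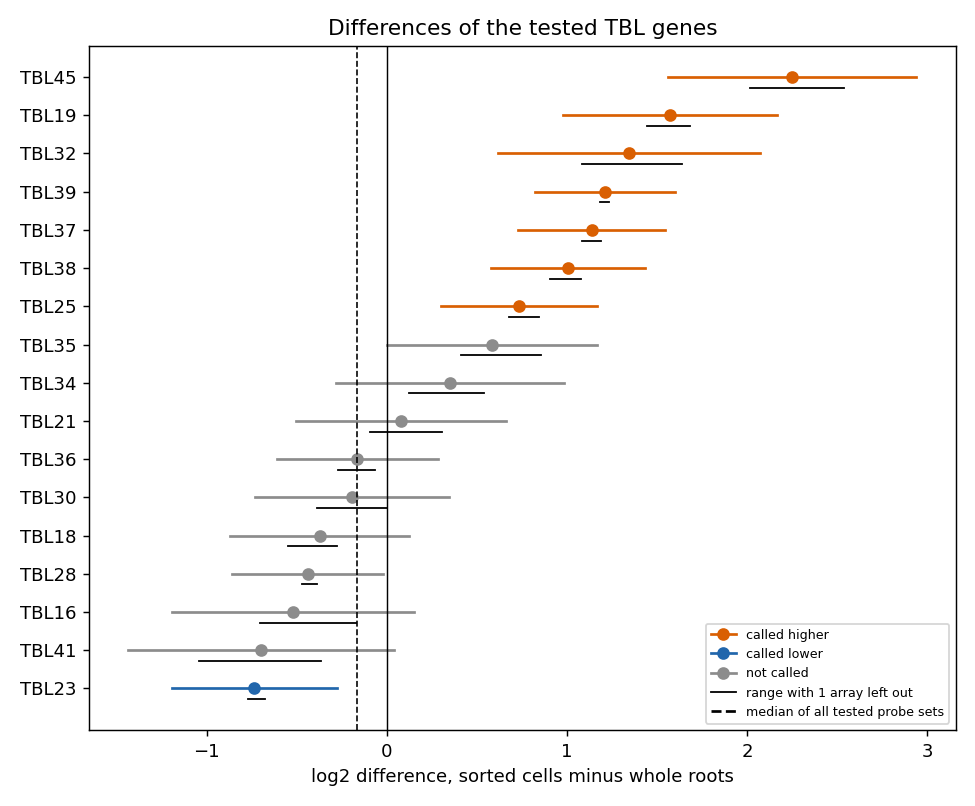
Log2 differences (sorted cells minus whole roots) of the 17 tested TBL genes with limma's 95% intervals; orange genes were called higher, blue lower and grey not called, thin black lines give the range when 1 of the 6 arrays is left out, and the dashed line is the median of all tested probe sets (-0.16). The 7 genes called higher lie at 0.73 to 2.25 and TBL23 at -0.74; scaling to the hybridisation controls moves every point down by 1.61, which leaves TBL45 alone above 0.

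Xylan, a hemicellulose with a xylose backbone, is acetylated by the largest group of characterised TBL proteins, and 5 of these genes were tested. Of these, 1 rose and 4 did not pass, with a median difference of 0.35, where 23.7% of all tested probe sets were called higher and 30.2% lower. TBL32 (AT3G11030), which adds acetyl groups to xylose units that carry a glucuronic acid side group, read 212, 434 and 356 in sorted cells, against 152, 87.9 and 150 in whole roots. Its probe set is of the type whose name marks probes that can match more than 1 transcript. The groups did not overlap, although the lowest sorted-cell array, replicate 1, was close to the highest whole-root array. The log2 difference was 1.34 (SE 0.32; limma adjusted p = 0.00692), and -0.27 with arrays scaled to the hybridisation controls.

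TBL35 (AT5G01620) read 252, 468 and 420 in sorted cells and 222, 247 and 266 in whole roots, so that replicate 1 of the sorted cells lay among the whole roots. Its difference of 0.58 (SE 0.26) did not pass (limma adjusted p = 0.0833). Without sorted-cell replicate 1 it passed at 0.86 (limma adjusted p = 0.00315), and it also passed after quantile normalization, at 0.75 (limma adjusted p = 0.0339), and when arrays were weighted by quality, at 0.71 (limma adjusted p = 0.00804). It did not pass under the other settings, with adjusted p values up to 0.212. TBL34 (AT2G38320) read 230, 188 and 334 in sorted cells and 147, 190 and 249 in whole roots, with overlapping groups (0.35; 95% interval -0.29 to 0.98).

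TBL28 (AT2G40150) and TBL30 (AT2G40160), both xylan acetyltransferase genes, are neighbouring protein-coding genes by locus order. TBL28 read 152, 147 and 151 in sorted cells, all under the 195, 197 and 219 of whole roots, and its difference of -0.44 (95% interval -0.86 to -0.02) did not pass over all probe sets (limma adjusted p = 0.0712). TBL30 overlapped between the groups, at 462, 269 and 353 in sorted cells and 358, 442 and 414 in whole roots (-0.19; 95% interval -0.73 to 0.35). The log2 ratio of TBL28 to TBL30 on an array, which no scaling of the array changes, was -1.24 ± 0.37 in sorted cells and -0.99 ± 0.16 in whole roots (mean ± SD of 3 arrays each; two-sided exact permutation p = 0.4, also after adjustment over 2 pairs of neighbours).

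Mannan, a hemicellulose of mannose and glucose units, is acetylated by the products of TBL23 to TBL26, and 2 of these genes were tested and differed in opposite directions. TBL25 (AT1G01430) read 299, 308 and 300 in sorted cells, against 168, 169 and 212 in whole roots. TBL23 (AT4G11090) read 84.95, 95.6 and 97.2 in sorted cells and 153, 147 and 162 in whole roots. Neither gene had overlapping groups. The difference was 0.73 (SE 0.19; limma adjusted p = 0.0106) for TBL25 and -0.74 (SE 0.20; limma adjusted p = 0.0133) for TBL23.

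Each of these calls ended when 1 whole-root array was left out, that of TBL25 without replicate 2 (0.68; limma adjusted p = 0.0558) and that of TBL23 without replicate 3 (-0.70; limma adjusted p = 0.0650). Over all settings but the scaling to hybridisation controls the adjusted p lay between 0.00445 and 0.0558 for TBL25 and between 0.0103 and 0.0650 for TBL23. TBL23 stood at -0.48 with an offset of 64. With arrays scaled to the hybridisation controls TBL25 stood at -0.88 and TBL23 at -2.35.

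The pair of TBL25 and TBL23 was chosen after its values had been seen, so its ratio is a description with no test. The log2 ratio of TBL25 to TBL23 within an array was 1.81, 1.69 and 1.63 in sorted cells and 0.13, 0.20 and 0.38 in whole roots. The means of the 2 sets of ratios lay apart by 1.47, which restates the opposite calls of the genes. TBL26 (AT4G01080), the other mannan gene with a probe set, was too dim to be tested. It read 40.6, 55.1 and 23.9 in sorted cells and 18.1, 21.1 and 16.02 in whole roots, without overlap, with 2 of 3 sorted-cell arrays and 3 of 3 whole-root arrays above background (1.04 with no filter; limma adjusted p = 0.136).

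**Figure D3:**
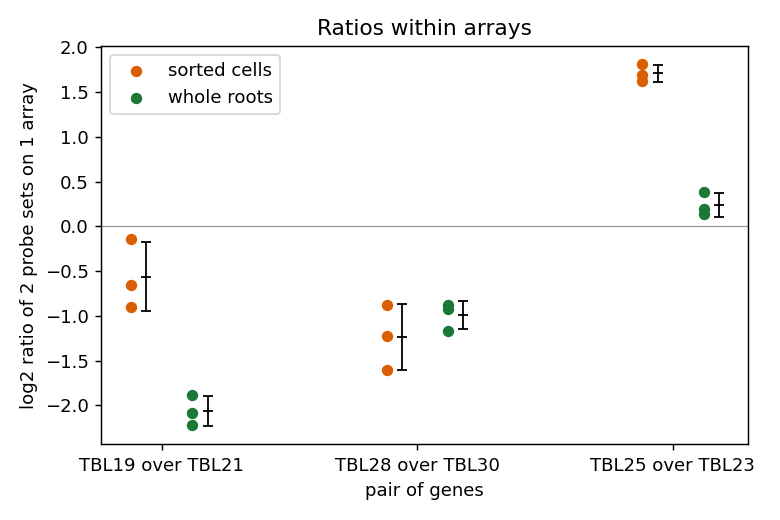
Log2 ratio of 2 TBL probe sets on the same array for 3 pairs of genes, sorted cells in orange left of whole roots in green, with mean ± SD in black (n = 3 each). The ratios of TBL25 to TBL23 and of TBL19 to TBL21 do not overlap between the groups, and those of TBL28 to TBL30 do.

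TBL19 (AT5G15900) and TBL21 (AT5G15890) are a second pair of neighbouring genes by locus order. TBL19 read 106, 122 and 148 in sorted cells, against 45.7, 43.7 and 36.5 in whole roots, with no overlap. Its difference was 1.57 (SE 0.26; limma adjusted p = 0.00107), 0.83 with an offset of 64 and -0.04 with arrays scaled to the hybridisation controls. TBL19 passed the filter on dim probe sets only through its level in sorted cells, which also bears on its ratio below. TBL21 read 198, 134 and 234 in sorted cells and 213, 161 and 154 in whole roots, so that the groups overlapped (0.08; 95% interval -0.51 to 0.66). The log2 ratio of TBL19 to TBL21 was -0.56 ± 0.39 in sorted cells and -2.06 ± 0.17 in whole roots (mean ± SD of 3 arrays each; two-sided exact permutation p = 0.1, the lowest possible with 3 arrays a group, and 0.2 adjusted over the 2 pairs). Both pairs of neighbours were found from the gene table.

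Of the other tested members, 4 had lower means in sorted cells and none passed. TBL41 (AT3G14850) read 559, 218 and 341 in sorted cells and 631, 468 and 601 in whole roots. Sorted-cell replicate 1 lay among the whole roots and the other two below them, and the difference of -0.70 (SE 0.33; limma adjusted p = 0.0985) stood at -0.36 without sorted-cell replicate 2 (limma adjusted p = 0.283). It passed at -1.04 without sorted-cell replicate 1 (limma adjusted p = 0.00427), with array quality weights (-0.74; limma adjusted p = 0.0164) and with arrays scaled to the hybridisation controls (-2.31; limma adjusted p = 0.000147). TBL16 (AT5G20680) showed the reverse order, with 106 on sorted-cell replicate 1 and 222 and 219 on the others, against 257, 262 and 228 in whole roots. Its groups did not overlap, and its difference of -0.52 (SE 0.30; limma adjusted p = 0.164) stood at -0.17 without sorted-cell replicate 1. With arrays scaled to the hybridisation controls it passed at -2.14 (limma adjusted p = 0.000122).

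TBL18 (AT4G25360) read 377, 550 and 384 in sorted cells and 629, 543 and 506 in whole roots (-0.37, SE 0.22; limma adjusted p = 0.179). Sorted-cell replicate 2 lay among the whole roots, and without it the gene passed at -0.55 (limma adjusted p = 0.0473, with values up to 0.470 under other settings), as it did with arrays scaled to the hybridisation controls (-1.99; limma adjusted p = 0.00116). TBL36 (AT3G54260) read 334, 310 and 286 in sorted cells and 300, 348 and 399 in whole roots (-0.16; 95% interval -0.61 to 0.28), with overlapping groups. It passed only with arrays scaled to the hybridisation controls, at -1.78 (limma adjusted p = 0.00259).

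**Figure D4:**
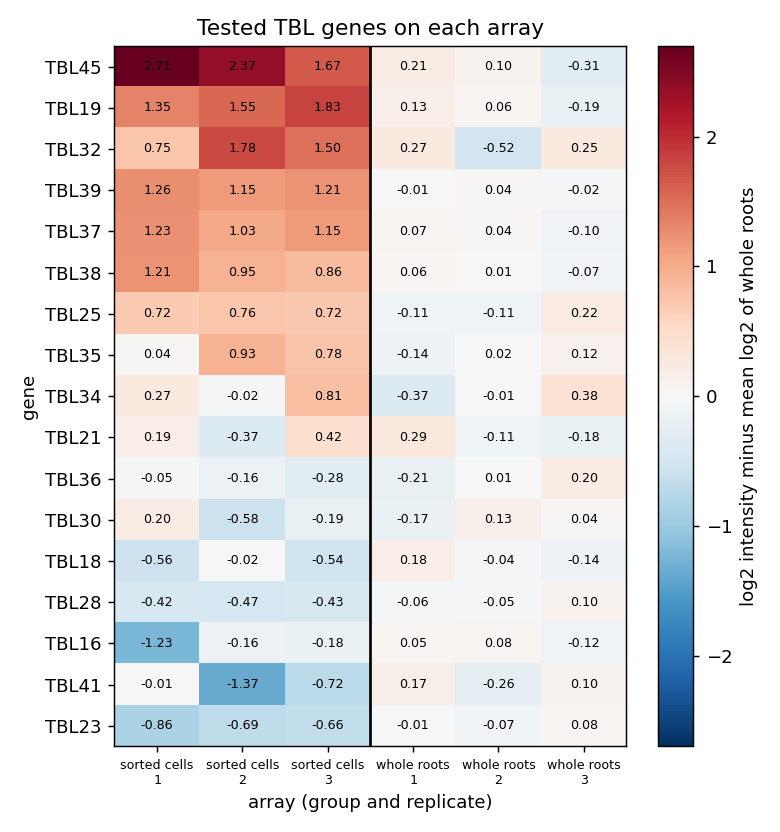
Log2 intensity of the 17 tested TBL genes on each array minus the mean log2 of the 3 whole-root arrays (red higher, blue lower), sorted cells left of whole roots. Rows of TBL39, TBL37 and TBL25 are even across the sorted-cell arrays, whereas TBL16, TBL35 and TBL41 differ between replicate 1 and the others.

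Sorted-cell arrays differed more among themselves than whole-root arrays did. Over the 17 tested members the median log2 SD was 0.31 in sorted cells and 0.16 in whole roots, and over all tested probe sets it was 0.37 and 0.18. The SD was larger in sorted cells for 14 members, the exceptions being TBL25, TBL28 and TBL36. Replicate 1 of the sorted cells, the array with the largest actin difference and the brightest hybridisation controls, was the highest sorted-cell array for 8 members, among them TBL37, TBL38, TBL39, TBL41 and TBL45. It was the lowest for 7 others, among them TBL16, TBL19, TBL32 and TBL35. Replicate 2 was the highest for 5 members and the lowest for 7, and replicate 3 the highest for 4 and the lowest for 3. The same counts over all tested probe sets are not given here. The part of transcript integrity in these orders was not tested. Without sorted-cell replicate 1, 10 members were called, 8 higher and 2 lower. Calls over all tested probe sets then stood at 59.1%, with 26.2% higher and 32.8% lower.

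**Figure D5:**
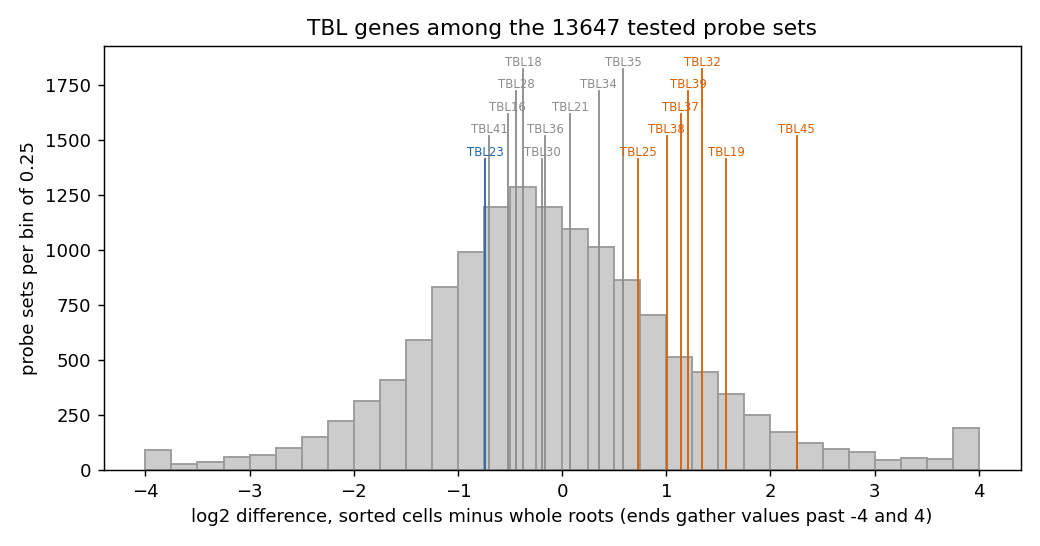
Number of tested probe sets (vertical axis) by log2 difference, sorted cells minus whole roots, in bins of 0.25, with coloured lines at the 17 tested TBL genes (orange called higher, blue called lower, grey not called). TBL45 lies above 95.2% of the tested probe sets and TBL23 above 29.1%.

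The 5 members left out as too dim included TBL26, described above. TBL43 (AT2G30900) read 7.21, 6.32 and 8.91 in sorted cells and 1.13, 0.742 and 1.15 in whole roots, without overlap but at or under the background level on every array, so no fold is given; in a fit with no filter it was called (limma adjusted p = 0.0194). TBL42 (AT1G78710) read 20.9, 7.25 and 1.38 in sorted cells, at or under background on all 3, and 1.32, 15.6 and 7.93 in whole roots. TBL15 (AT2G37720) read 6.96, 43.7 and 27.5 in sorted cells, with 2 of 3 above background, and 5.93, 6.77 and 9.08 in whole roots, with none above. Its groups overlapped, and no fold is given. TBL20 (AT3G02440) read 34.2, 39.5 and 13.5 in sorted cells and 7.95, 15.5 and 12.1 in whole roots, with overlapping groups. Apart from TBL43, none of these 5 passed with no filter. Over all 22 members that fit called 9, 8 higher and 1 lower, where it called 36.4% of 22746 probe sets, 17.6% higher and 18.7% lower.

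Genes that build the polysaccharides TBL proteins act on were sparse among the probe sets with 1 gene, and their counts stand beside 23.7% of all tested probe sets called higher and 30.2% lower. For xylan synthesis 3 genes were tested, of 4 with a probe set, and 2 rose, with a median of 0.74. GUT2, also called IRX10, which codes for an enzyme of the xylan backbone, read 206, 197 and 304 in sorted cells and 131, 109 and 117 in whole roots (0.96, SE 0.23; limma adjusted p = 0.00698). Its close relative GUT1 overlapped between the groups, at 370, 747 and 776 in sorted cells and 658, 729 and 629 in whole roots (-0.17; limma adjusted p = 0.654), and stood at 0.18 without sorted-cell replicate 1. IRX15-L, another gene on the xylan synthesis list, read 179, 118 and 198 in sorted cells and 109, 91.3 and 91.1 in whole roots (0.74; limma adjusted p = 0.0338). That call ended with median centring, with no filter, with the replicate number as a block and without any 1 of 5 arrays, all but sorted-cell replicate 2 (limma adjusted p up to 0.105). The xylan gene too dim to be tested was called higher with no filter (1.72; limma adjusted p = 0.0381), with 2 of 3 arrays of each group above background.

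Xyloglucan synthesis was represented by 5 tested genes, all of the CSLC family, whose products make the glucan backbone, and no TBL gene known to acetylate xyloglucan was among the members. Of these, 1 rose, 2 fell and 2 did not pass. CSLC04 read 1377, 1187 and 1816 in sorted cells and 738, 527 and 507 in whole roots (2.47-fold higher; limma adjusted p = 0.00179). CSLC6 read 183, 254 and 257 in sorted cells and 646, 606 and 526 in whole roots (-1.37, SE 0.21; limma adjusted p = 0.000747). CSLC12 read 65.0, 38.7 and 36.9 in sorted cells and 119, 153 and 194 in whole roots (-1.75, SE 0.31; limma adjusted p = 0.00154). CSLC12 passed the filter on dim probe sets only through its level in whole roots. No group overlapped for these 3 genes, so on the deposited scale members of 1 synthase family lay on both sides of 0. On that scale CSLC5 stood at -0.37 and ATCSLC08 at -0.44, and neither passed. With arrays scaled to the hybridisation controls all 5 genes lay under 0. There CSLC5 (-1.98), CSLC6 (-2.98), ATCSLC08 (-2.05) and CSLC12 (-3.365) were called lower, as were 71.7% of all tested probe sets. CSLC04 did not pass, at -0.31.

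Mannan synthesis had 1 tested gene of 2 with a probe set, CSLA03, whose family makes mannan backbones. It read 189, 160 and 337 in sorted cells and 344, 332 and 335 in whole roots (-0.64; limma adjusted p = 0.0798), and passed at -0.96 without sorted-cell replicate 3 (limma adjusted p = 0.00712). Pectin synthesis had GAUT15, of a family of galacturonic acid transferases, at 87.6, 81.5 and 57.1 in sorted cells and 34.1, 51.8 and 26.1 in whole roots (1.05, SE 0.36; limma adjusted p = 0.0348). It passed the filter only through its level in sorted cells. Its call ended with no filter (limma adjusted p = 0.0632), with array quality weights (0.0832) and without any 1 of 4 arrays, whole-root replicate 1 or 3 and sorted-cell replicate 1 or 2 (limma adjusted p up to 0.132). With arrays scaled to the hybridisation controls GUT2 stood at -0.65, IRX15-L at -0.88, CSLC04 at -0.31 and GAUT15 at -0.57, none passing. The lists of other wall acetylation genes, secondary wall cellulose and lignin genes and secondary wall regulators had no probe set with 1 gene under the names listed.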

How the data were processed

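RNA of 6 root samples, 3 of sorted cells and 3 of whole roots, was measured on 1 array each. Per the submitters' processing notes, MAS5 made the deposited signal intensity values; no source used here gives its version or its detection calls. All arrays shared one trimmed mean and were used as deposited. Of 22810 probe sets, 64 are controls and 13513 pair with 1 gene in the platform annotation. All 22 TBL genes were found by gene ID in the RefSeq gene table (TAIR10.1), which served for locus names and order. Controls and, by mean log2 over all arrays, the dimmest 40% of other probe sets were removed; 13647 remained. Tests used limma 3.58.1 in R 4.3.3 (lmFit, then eBayes with a variance trend) on log2 intensity with Benjamini-Hochberg adjustment. A check on simulated data gave both groups the same spread and changed few probe sets. It does not cover the wider spread of sorted cells or changes in many probe sets. Ratios of neighbouring genes within arrays were compared by exact two-sided permutation of the arrays, which cannot give a p under 0.1 here. Python 3.11.15, pandas 2.3.3, numpy 2.4.6 and matplotlib 3.10.9 served for the rest. Any TBL gene could be named; each wall list could give 4 called genes with the largest differences and the 2 brightest others. Members, lists and alternatives were chosen with earlier results of these data known. The alternatives varied normalization (quantile, median), the offset before the log (16, 64), the filter (none, 60%), the variance model (no trend, robust), array quality weights, a replicate block, single arrays left out, a 2-fold threshold and the background level. Scaling to hybridisation controls was added after seeing the data.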

Additional observations from a re-analysis of the deposited data

How the results depend on the processing

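Among the 17 tested TBL genes, direction and side of the threshold were the same for all 17 with median centring, either offset, no filter, no variance trend and robust variance, and for the 14 still tested under the 60% filter. Quantile normalization turned TBL36 to 0.03, and array quality weights turned GUT1 to 0.072. TBL genes called in all numbered 5 under the 60% filter, against 8, where that fit called 57.3% of all probe sets. That filter removed TBL19, TBL23 and TBL45 as too dim, and the 5 other called genes kept their calls. TBL genes called lower numbered 0 under that filter, where TBL23 was not tested, and 0 with a 2-fold threshold. They numbered 2 with array quality weights and 0 to 2 with 1 array left out, against 1. Of all probe sets, 33.8% were called lower under that filter, 20.7% with the 2-fold threshold and 34.6% with array quality weights. With 1 array left out, 3101 to 4483 of 13647 tested probe sets were called lower. Without 1 array TBL21 ran from -0.095 to 0.304, TBL30 from -0.387 to 0.003, and GUT1 from -0.352 to 0.183. The median over TBL genes was 0.659 with no filter, which takes in the 5 dim members, beside 0.154 over all probe sets in that fit, and 0.121 to 0.541 with 1 array left out. Probe sets called higher numbered 2141 under the 60% filter, where 9098 were tested. Xylan synthesis genes called numbered 1 with median centring and the replicate block, 0 with a 2-fold threshold and 1 to 2 with 1 array left out. Under the 60% filter, which left IRX15-L untested, 1 was called. Pectin synthesis genes called numbered 0 with no filter and with array quality weights and 0 to 1 with 1 array left out, and mannan synthesis genes 0 to 1. The 60% filter removed GAUT15, so no pectin synthesis gene was tested under it. Beside these counts, 7140 of 13647 tested probe sets were called in either direction with median centring and 8368 with array quality weights. With a 2-fold threshold 5186 were called, and 5738 to 8065 with 1 array left out.

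Scaling to the hybridisation controls gave 453 probe sets called higher (3.32%) and 9783 lower (71.7%), and 0 TBL genes higher and 9 lower, with a median of -1.26. TBL19 stood at -0.040, TBL21 at -1.54, TBL25 at -0.881, TBL32 at -0.271, TBL34 at -1.26, TBL35 at -1.03, TBL37 at -0.478, TBL38 at -0.608 and TBL39 at -0.405, and GUT2 at -0.652, IRX15-L at -0.877, CSLC04 at -0.310 and GAUT15 at -0.568. Xylan synthesis genes called numbered 1, which was GUT1, lower in sorted cells (-1.78; limma adjusted p = 0.00393). Mannan synthesis genes called numbered 1, CSLA03, also lower (-2.25; limma adjusted p = 9.57e-05), and pectin synthesis genes 0. Xyloglucan synthesis genes called numbered 4 of 5 tested, all lower in sorted cells. Against the second brightest bacterial control, 2 members in place of 3 were at or under background on every array of a group. What moved the hybridisation controls was not tested.

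Same-numbered arrays of the 2 groups deviated from their group means with correlations of -0.30, -0.16 and -0.05, and unlike-numbered arrays with correlations from -0.14 to 0.26. With 3 arrays a group these values cannot decide whether the numbers pair the samples, and the labels do not say what a number marks. With the replicate block 8 TBL genes were called, as without it, 7 higher and 1 lower, where 48.4% of all tested probe sets were called, 21.5% higher and 26.9% lower. Of the wall genes named IRX15-L lost its call (limma adjusted p = 0.0533).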
